A study of Mus musculus with 12 samples.

Results

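Nuclear factor kappa B (NF-kappa B) is a family of transcription factors that is held in the cytoplasm by inhibitor proteins and released into the nucleus when receptors for cytokines or microbial products are engaged. Its subunits pair with each other to bind DNA, and many of its target genes encode cytokines, chemokines and its own inhibitors, so that the pathway switches itself off. In monocytes and macrophages it is a main route by which danger signals from injured tissue are turned into inflammatory gene expression. Described here are 10 of the 14460 genes of a sequencing experiment on mouse heart cells, taken by their symbols as a family, with earlier results of these data known. They are the subunit genes Nfkb1, Nfkb2, Rel, Rela and Relb, the genes of the inhibitor (IkB) proteins Nfkbia, Nfkbib and Nfkbie, the gene of the nuclear IkB-like protein Nfkbiz, and Tnfaip3, which encodes an enzyme that edits ubiquitin chains and damps signalling upstream of NF-kappa B. All 10 were found, and all 10 passed the filter on low values.

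GFP-positive cells were sorted from hearts of Cx3cr1GFP/+ mice aged 2 to 3 months, in which GFP replaces the coding part of the chemokine receptor Cx3cr1 on 1 chromosome, and total RNA of these cells was sequenced. The 4 groups held 3 libraries each, labelled as independent biological replicates. Day 0 was the heart without surgery, sorted as Ly6clow/CX3CR1high cells; day 3 was the heart 3 days after cryoinjury, a freezing injury used as a model of myocardial infarction, sorted as Ly6chigh/CX3CR1low cells; days 7 and 30 were hearts at those times after cryoinjury, again sorted as Ly6clow/CX3CR1high cells. Day and sorting gate cannot be told apart in any comparison with day 3. In bulk samples such as these, fewer cells of a type and less RNA per cell cannot be told apart. Levels are given as signal, a normalised read count on a linear scale, as mean ± SD with n = 3 libraries per group. Differences are log2 fold changes of signal + 1 ± SE with 3 against 3 libraries, and a difference passed the test where the Benjamini-Hochberg adjusted p of limma over 12879 genes was under 0.05. Each value with a "rose by" or "changed by" is on that log2 scale, and the value in parentheses after it is the adjusted p. All 12 libraries entered 1 fit, so the spread behind each SE and adjusted p was pooled over the 4 groups. A library outside a comparison can therefore change the adjusted p of that comparison. The libraries held 5828904 to 13199576 reads.

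The macrophage and monocyte markers were present in all libraries, with a summed signal of 3390 to 4164 at day 0, 3658 to 4027 at day 3, 3561 to 5064 at day 7 and 3235 to 3379 at day 30. The sum of 6 Ly6c-high monocyte markers was 3435 to 5169 at day 3 and 200.5 to 843 in the 9 other libraries, and that of 6 resident cardiac macrophage markers was 2367 to 2912 at day 0, 235 to 286 at day 3, 271 to 627 at day 7 and 1400.3 to 1431 at day 30. A sum of 7 fibroblast markers was 556 to 2184 at day 7, highest in replicate 2, against 39.5 to 382 in the other groups. The second day 7 library, the first day 0 library and the first day 3 library stood apart from their groups. The chi-square of read counts between 2 libraries, averaged over genes, was 34.6 and 25.6 for the first day 3 library against the others of day 3. Between those others it was 6.20. The 3 day 30 libraries were closer to each other than those of any other group. Their chi-square was 2.18 to 2.93, against 6.20 to 89.2 within the other groups. These 3 libraries still differed by more than sampling noise, and because of their closeness day 30 results are also given with their average counted as 1 sample. The summed markers of mast cells, B cells, erythroid cells, endothelium, cardiomyocytes, T and NK cells, neutrophils and dendritic cells each lay between 0 and 172 in all libraries. The Ly6c-high monocyte sum moved with every difference between day 3 and another day given here, and its part in them was not tested.

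The windows of 250 bases before the RefSeq start (GRCm38.p6) were searched on both strands for the kappa B consensus, the site that NF-kappa B dimers bind, because the levels of Rel, Nfkbia, Nfkbiz and Tnfaip3 went together. RefSeq promoters were at hand for 7 of the 10 members. Nfkb1, Relb and Nfkbiz had none, and a link between the consensus and the levels was not tested. The consensus was present in 5 of these 7 windows (Nfkb2, Rel, Nfkbia, Nfkbie and Tnfaip3) and its letters were not in those of Rela and Nfkbib, against 1901 of 27025 genes (7.03%) with it. Whole windows are printed for the inhibitor genes Nfkbia (chr12:55492648-55492897, minus strand) and Nfkbie (chr17:45555450-45555699, plus strand), whose highest group means were at day 30 and at day 3. For Nfkb2 (chr19:46304688-46304717, plus strand), Rel (chr11:23771042-23771071, minus strand) and Tnfaip3 (chr10:19015516-19015545 and chr10:19015411-19015440, minus strand), 30 bases around a match are shown; Nfkb2 held a further match 2 to 11 bases before its start. Capitals mark the matching letters, and each sequence reads 5′ to 3′ along the gene's strand.
Nfkbia: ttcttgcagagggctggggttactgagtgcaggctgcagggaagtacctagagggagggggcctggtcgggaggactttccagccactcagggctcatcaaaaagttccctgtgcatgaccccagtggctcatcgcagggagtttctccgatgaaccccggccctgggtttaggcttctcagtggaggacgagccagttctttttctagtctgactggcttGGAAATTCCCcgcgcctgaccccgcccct
Nfkbie: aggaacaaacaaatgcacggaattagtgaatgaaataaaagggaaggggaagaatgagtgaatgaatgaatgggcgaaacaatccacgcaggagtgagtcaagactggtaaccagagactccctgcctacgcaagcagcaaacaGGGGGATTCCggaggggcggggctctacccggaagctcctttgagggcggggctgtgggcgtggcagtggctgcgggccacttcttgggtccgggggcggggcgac
Rel: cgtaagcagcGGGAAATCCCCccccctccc
Nfkb2: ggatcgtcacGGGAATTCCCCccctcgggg
Tnfaip3, farther from the start: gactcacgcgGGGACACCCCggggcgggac
Tnfaip3, nearer to the start: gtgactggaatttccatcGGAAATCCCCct
The matching stretch lay 20 to 29 bases before the start of Nfkbia, 97 to 106 bases before that of Nfkbie, 82 to 92 bases before that of Rel and, for the printed match, 29 to 39 bases before that of Nfkb2. These distances are from the RefSeq start. In the GENCODE M21 annotation Nfkbib, Nfkb2, Tnfaip3 and Rela start farther upstream, and Rel does by 1 base. The matches of Nfkb2 and Tnfaip3 lie inside those genes. For Nfkbib the whole window (28766645 to 28766894) lies inside the gene (28758251 to 28767512), so it does not cover the bases before the GENCODE start. Of the 250 bases of each window, 250 were GENCODE exon for Nfkb2, 110 for Tnfaip3, 58 for Rela and 1 for Rel. The number was 0 for Nfkbia, Nfkbib and Nfkbie. A match is a description of the letters and not of binding, which was not measured.

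Across the 4 days 7 of the 10 genes differed in the F test of limma, where 63.9% of all tested genes did. The smallest adjusted p values were 1.88e-05 for Nfkbiz, 7.04e-05 for Nfkbie and 7.7e-05 for Rel, followed by 0.000508 for Tnfaip3, 0.00226 for Nfkbia, 0.00479 for Nfkbib and 0.0423 for Rela. Relb (adjusted p = 0.0726), Nfkb2 (0.117) and Nfkb1 (0.242) did not pass. The call of Rela was lost without the second day 0 library (0.0594), the second day 3 library (0.0510), the first or the second day 7 library (0.0998 and 0.163) or any 1 day 30 library (0.0684 to 0.0761), with medians centred (0.0959) and with day 30 averaged (0.128). Relb passed without the first day 0 library (0.0206) or the first day 7 library (0.0366), and Nfkb2 without the second (0.0113) or the last (0.0344) day 7 library.

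At day 3 against day 0, 3 members rose and 0 fell, where 44.2% of all tested genes passed (22.1% higher and 22.1% lower); a count of 3 of 10 is near these shares and is read no further. The groups of 4 members did not overlap, all higher at day 3, against 55.4% of tested genes (27.9% higher, 27.5% lower). At day 7 against day 0, 0 members passed in the limma test, where 21.6% of tested genes did, and 0 did by edgeR and by DESeq2; 4 members had an unadjusted p under 0.05 in limma, where 35.8% of tested genes did. The groups of 1 member did not overlap there (32.2% of tested genes). A smaller share of genes passed at day 30 against day 0, where 4 members rose and 0 fell, beside 6.18% of tested genes (3.45% higher, 2.73% lower). There 6 members lay above day 0 without overlap, beside 40.8% of tested genes (20.5% higher, 20.3% lower). Between day 7 and day 3, 1 member rose and 5 fell (46.8% of tested genes passed, 23.3% higher and 23.5% lower), and 6 members did not overlap, 1 higher and 5 lower (50.9%, of which 25.6% higher and 25.3% lower). Between day 30 and day 3, 2 members rose and 1 fell (39.4%, of which 19.2% higher and 20.3% lower), and 6 did not overlap, 4 higher and 2 lower (62.4%, of which 30.3% higher and 32.1% lower). Between day 30 and day 7, 5 members rose and 1 fell (39.6%, of which 19.7% higher and 19.9% lower), and 6 did not overlap, 5 higher and 1 lower (55.3%, of which 27.7% higher and 27.6% lower). The median log2 fold change of the 10 members was 0.75, 0.09 and 0.79 at days 3, 7 and 30 against day 0, beside −0.02, −0.02 and −0.01 over all tested genes. It was −0.87 at day 7 against day 3 (0.04 over all tested genes), 0.10 at day 30 against day 3 (0.01) and 0.43 at day 30 against day 7 (0.01). Comparisons that share a group share its libraries, so the 3 against day 0 are not independent of each other.

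**Figure D1:**
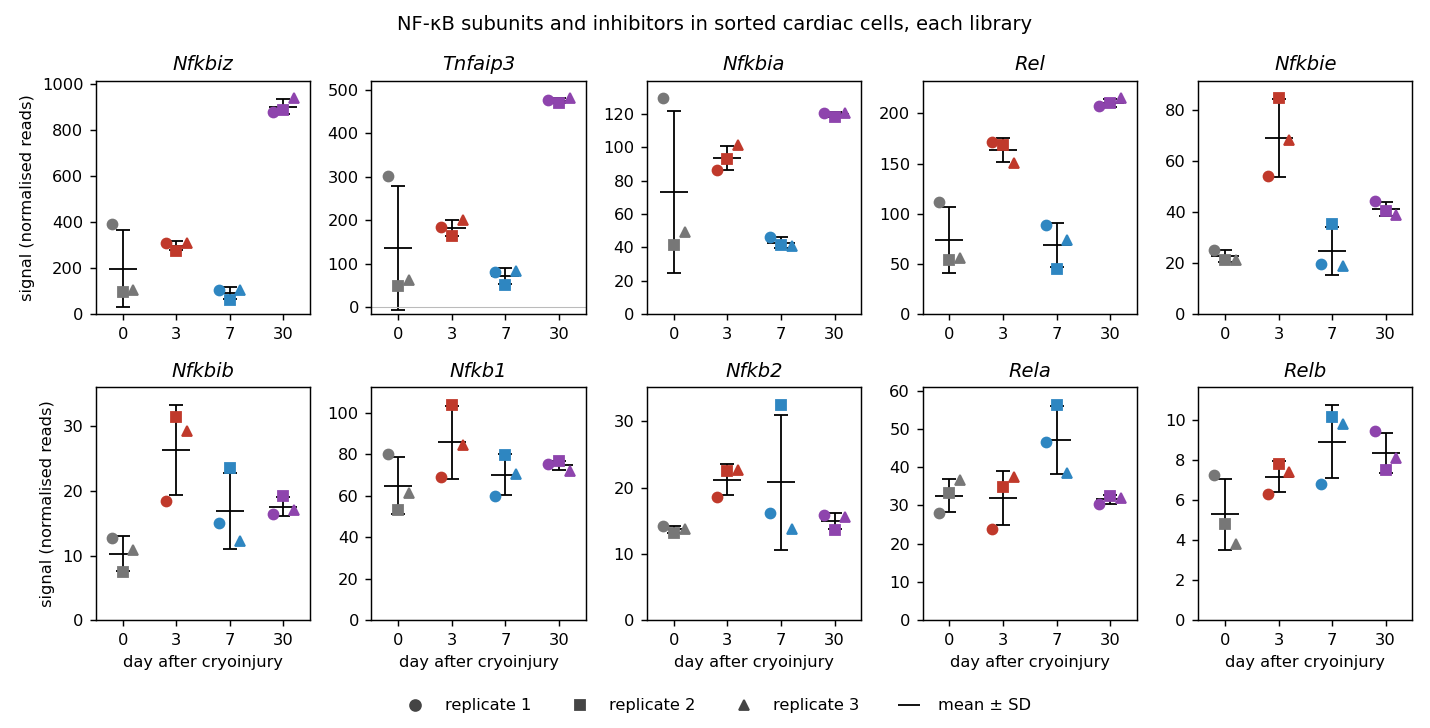
Signal of each of the 10 genes (vertical axis, linear, a scale for each gene) in each of the 12 libraries by day after cryoinjury (horizontal axis). Symbols are replicates, and bars are the mean ± SD of 3 libraries. Nfkbiz, Tnfaip3 and Rel are highest in the day 30 libraries, and Nfkbie in the day 3 libraries; replicate 1 of day 0 lies above the other 2 day 0 libraries for Nfkbiz, Tnfaip3, Nfkbia and Rel.

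Among the subunits Rel moved most. Rel (c-Rel, ENSMUSG00000020275, chromosome 11, 23736847 to 23770970 on GRCm38, minus strand) carries its own activation domain and is found mainly in blood cells. Its signal was 112, 53.8 and 56.1 in the day 0 libraries, 172, 168 and 150.1 at day 3, 88.3, 44.7 and 73.5 at day 7, and 207, 210.0 and 215 at day 30. All libraries of days 3 and 30 lay above all of days 0 and 7, which overlapped with each other. Rel rose by 1.22 ± 0.26 at day 3 against day 0 (adjusted p = 0.00128) and by 1.58 ± 0.26 at day 30 against day 0 (0.00238). It changed by −1.29 ± 0.26 at day 7 against day 3 (0.000882) and by 1.66 ± 0.26 at day 30 against day 7 (0.000276), where its mean was 3.06 times as high at day 30. Between day 30 and day 3 the difference was 0.37 (95% interval −0.18 to 0.91, adjusted p = 0.280), although the groups did not overlap; it passed under quantile normalisation (0.72, adjusted p = 0.0338) and without the first day 0 and second day 7 libraries together (0.37, 0.00721).

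Rela encodes the subunit with the strongest activation domain in the common NF-kappa B dimer (ENSMUSG00000024927, chromosome 19, 5637483 to 5648130, plus strand). Its signal was 28.0, 33.1 and 36.6 at day 0, 23.95, 34.7 and 37.3 at day 3, 46.5, 56.3 and 38.6 at day 7, and 30.3, 32.5 and 31.9 at day 30. The day 7 libraries were above all others, and the groups of days 0, 3 and 30 overlapped. Rela moved against the other members that passed: it rose by 0.55 ± 0.19 at day 7 against day 3 (adjusted p = 0.0256) and fell at day 30 against day 7 by 0.55 ± 0.19 on the log2 scale (0.0318). Without the second day 7 library, where fibroblast markers were highest, these were 0.42 (0.0772) and −0.41 (0.101), and without the first day 3 library the rise was 0.36 (0.125). The part of other cells in them was not tested. With medians centred the 2 differences were 0.46 (0.0593) and −0.46 (0.0691), so neither call was kept. The second was also lost without the first day 7 library (0.0533) or any 1 day 30 library (0.0704 to 0.0945). At day 7 against day 0 the difference was 0.51 ± 0.19 (0.0642), and the adjusted p was 0.0380 without the first day 3 library and 0.0308 without the last day 7 library.

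Nfkb1 encodes the precursor of the partner that Rela most often binds (ENSMUSG00000028163, chromosome 3, 135584655 to 135691547, minus strand). Its signal was 80.0, 53.4 and 61.4 at day 0, 69.0, 104 and 84.3 at day 3, 60.1, 79.9 and 70.7 at day 7, and 75.2, 76.6 and 72.2 at day 30. All 4 groups overlapped, the means stood between 64.9 and 85.7, and no comparison passed. The largest difference was 0.40 at day 3 against day 0 (95% interval 0.01 to 0.78, adjusted p = 0.0866); without the first day 0 library it was 0.55 (adjusted p = 0.0250), and without the first day 3 library 0.54 (0.0313). The intervals of the other 5 comparisons reached no further than 0.66 from 0, so changes beyond that size lay outside them.

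Nfkb2 and Relb form the dimer of the slower, non-canonical branch of the pathway, in which Nfkb2 protein is the precursor. Nfkb2 (ENSMUSG00000025225, chromosome 19, 46304320 to 46312385, plus strand) had a signal of 14.3, 13.2 and 13.8 at day 0, 18.6, 22.4 and 22.6 at day 3, 16.2, 32.5 and 13.7 at day 7, and 15.8, 13.6 and 15.6 at day 30. The day 3 libraries lay above those of days 0 and 30, and the second day 7 library was the highest of all. Its difference at day 3 against day 0 was 0.59 ± 0.24 (adjusted p = 0.0629), and 0.63 (0.0465) with medians centred. It was 0.59 (0.00342) where the second day 7 library was left out of the fit. Without that library Nfkb2 also passed at day 7 against day 3 (−0.48, 0.0267) and at day 30 against day 3 (−0.47, 0.0146), which were −0.12 and −0.47 with it. Leaving out the last day 7 library gave 0.0382 at day 3 against day 0 and 0.70 (0.0465) at day 7 against day 0. Nfkb2 shares 299 exon bases with Psd, whose signal averaged 2.08 over the 12 libraries, and 531 with a non-coding gene that the experiment does not list. Both lie on the opposite strand, and whether the authors counted by strand is not given in the sources used here. Relb (ENSMUSG00000002983, chromosome 7, 19606217 to 19629438, minus strand) had the lowest signal per kilobase of exon at every day, and its signal was 7.26, 4.82 and 3.80 at day 0, 6.32, 7.79 and 7.41 at day 3, 6.81, 10.2 and 9.79 at day 7, and 9.44, 7.49 and 8.11 at day 30. The day 30 libraries lay above the day 0 libraries, and the other pairs of groups overlapped. Its lowest value stands for 21 reads. Relb differed by 0.68 ± 0.24 at day 7 (adjusted p = 0.0530) and by 0.60 ± 0.24 at day 30 (0.146), both against day 0, and neither passed; without the first day 0 library the day 7 difference was 0.89 (0.0201), and without the first day 7 library 0.84 (0.0253).

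Of the IkB genes Nfkbie had the clearest peak at day 3. Nfkbie (ENSMUSG00000023947, chromosome 17, 45555703 to 45563169, plus strand) encodes IkB epsilon, an inhibitor that binds Rel and Rela dimers. Its signal was 25.2, 21.3 and 21.2 at day 0, 53.9, 84.4 and 68.2 at day 3, 19.7, 35.4 and 18.7 at day 7, and 44.1, 40.3 and 38.8 at day 30. The day 3 libraries were above all others, the day 30 libraries came next, and days 0 and 7 overlapped. It rose by 1.55 ± 0.22 at day 3 against day 0 (adjusted p = 3.91e-05), where the mean was 3.05 times as high, and changed by −1.48 ± 0.22 at day 7 against day 3 (7.56e-05). Both differences passed without any 1 of the 12 libraries. At day 30 it was 0.84 ± 0.22 above day 0 (0.0361), 0.77 ± 0.22 above day 7 (0.0128) and −0.71 ± 0.22 relative to day 3 (0.0184). The rise over day 0 missed the threshold without the second or the third day 0 library, the third day 3 library or any 1 day 30 library (adjusted p of 0.0551 to 0.141). The difference from day 3 missed it without the second or the third library of day 3 or of day 30 (0.0537 to 0.0979) and under quantile normalisation (−0.48, 0.113).

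Nfkbib encodes IkB beta, an inhibitor whose gene is less inducible than that of IkB alpha (ENSMUSG00000030595, chromosome 7, 28758251 to 28767512, minus strand). Its signal was 12.7, 7.44 and 10.9 at day 0, 18.4, 31.4 and 29.3 at day 3, 14.99, 23.6 and 12.3 at day 7, and 16.5, 19.2 and 16.99 at day 30. Day 0 was lowest and overlapped with day 7 alone. Nfkbib rose by 1.26 ± 0.26 at day 3 against day 0 (adjusted p = 0.000963), and the other comparisons did not pass, the nearest being −0.62 ± 0.26 at day 7 against day 3 (0.0592). That difference was −0.87 (0.00937) without the second day 7 library, −0.85 (0.0192) without the first day 3 library and −0.71 (0.0354) with medians centred. At day 30 it differed by 0.74 ± 0.26 from day 0 (0.104, and 0.0330 without the second day 7 library) and by −0.53 ± 0.26 from day 3 (0.119, and −0.76 with 0.0356 without the first day 3 library). At day 7 against day 0 the difference was 0.64 ± 0.26 (0.0863), and 0.84 (0.0382) without the last day 7 library. Nfkbib shares 314 exon bases with Ccer2, which the experiment does not list, and 42 with Sirt2, whose signal averaged 68.5 over the 12 libraries. Both lie on the opposite strand, so part of the reads of Nfkbib may belong to them.

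Nfkbia encodes IkB alpha, the inhibitor that NF-kappa B induces within minutes to close its own loop (ENSMUSG00000021025, chromosome 12, 55489410 to 55492647, minus strand). Its signal was 129, 41.5 and 49.1 at day 0, 86.5, 93.1 and 101.1 at day 3, 46.3, 41.2 and 41.0 at day 7, and 121, 118 and 120.3 at day 30. The first day 0 library was the highest of all 12, while the other day 0 libraries stood close to those of day 7. Nfkbia changed by −1.11 ± 0.29 at day 7 against day 3 (adjusted p = 0.00546) and by 1.46 ± 0.29 at day 30 against day 7 (0.00131). Against day 0 its differences were 0.53 ± 0.29 at day 3 (0.145) and 0.89 ± 0.29 at day 30 (0.0801), neither of which passed. Without the first day 0 library they were 1.03 (6.29e-05) and 1.39 (5.01e-05), and the difference at day 30 against day 3, 0.36 ± 0.29 (0.354), had an adjusted p of 0.0468. At day 7 against day 0 the difference was −0.58 ± 0.29 (0.164), and −0.88 (0.0479) without the second day 0 library.

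Nfkbiz and Tnfaip3 had the largest changes of the family. Nfkbiz (ENSMUSG00000035356, chromosome 16, 55811375 to 55838899, minus strand) encodes IkB zeta, an IkB-like protein of the nucleus that works with NF-kappa B at later waves of targets. Its signal was 389, 96.9 and 102 at day 0, 307, 273 and 309 at day 3, 104, 62.1 and 106 at day 7, and 879, 885 and 937 at day 30. The day 30 libraries were above all others, day 3 lay above day 7, and the first day 0 library stood above day 3 while the other 2 fell in the range of day 7. Nfkbiz averaged 900.2 ± 32.2 at day 30 and 90.7 ± 24.8 at day 7, 9.93 times as high, with a log2 fold change of 3.34 ± 0.38 (adjusted p = 3.6e-05). It rose by 2.51 ± 0.38 at day 30 against day 0 (0.00141) and by 1.60 ± 0.38 at day 30 against day 3 (0.00334), and changed by −1.74 ± 0.38 at day 7 against day 3 (0.00168). At day 3 against day 0 the difference was 0.91 ± 0.38 (0.0625), 1.56 (1.88e-05) without the first day 0 library, and 0.91 (0.0487) without the second day 7 library.

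Tnfaip3 (ENSMUSG00000019850, chromosome 10, 19000910 to 19015657, minus strand) had a signal of 301, 47.9 and 62.5 at day 0, 184, 164 and 200.4 at day 3, 81.4, 51.2 and 83.6 at day 7, and 477, 469 and 481 at day 30. The order of its groups was that of Nfkbiz, again with the first day 0 library above day 3. Tnfaip3 averaged 476 ± 6.26 at day 30 and 72.1 ± 18.1 at day 7, 6.60 times as high (2.74 ± 0.45, adjusted p = 0.000423). It was 2.28 ± 0.45 higher at day 30 than at day 0 (0.00871), 1.78 (0.0517) without the second day 0 library. At day 30 against day 3 it rose by 1.38 ± 0.45 (0.0247). That call was lost without any 1 of the 6 libraries compared (0.0526 to 0.0765) and by DESeq2 (1.37, 0.0632). At day 7 against day 3 Tnfaip3 changed by −1.36 ± 0.45 (0.0229). This call was lost without the first or the third day 3 library (0.0547 and 0.0671) or the second day 7 library (−1.13, 0.0831). It was also lost under quantile normalisation (−0.98, 0.0817) and by DESeq2 (−1.35, 0.0597). In neither comparison did the groups overlap. The SE of 0.45 was pooled over all 4 groups, of which day 0 varied most (137 ± 142). Over all fits with 1 library left out, the adjusted p ran from 2.58e-05 to 0.0765 at day 30 against day 3. At day 7 against day 3 it ran from 3.12e-05 to 0.0831. At day 3 against day 0 the difference was 0.90 ± 0.45 (0.119), and 1.72 (8.53e-06) without the first day 0 library.

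**Figure D2:**
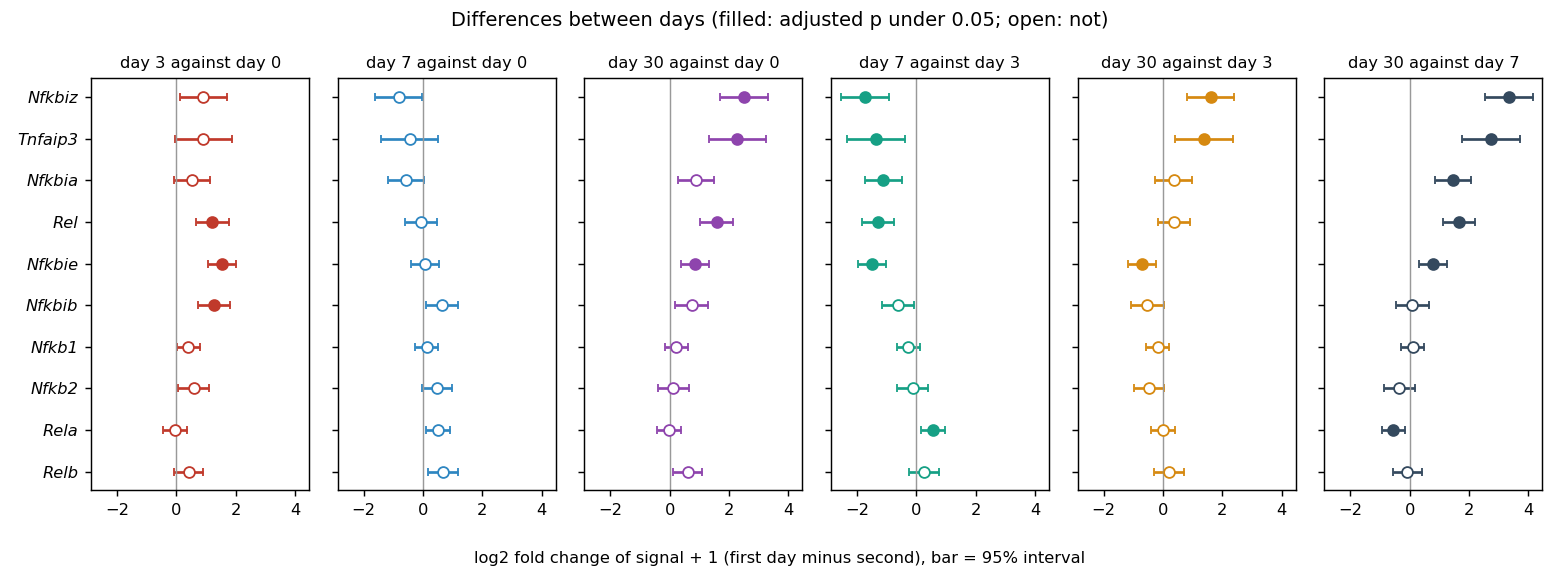
Log2 fold change of signal + 1 of each of the 10 genes (rows) in the 6 comparisons (panels), later day minus earlier day, with bars for the 95% interval; filled points have an adjusted p under 0.05. Nfkbiz at day 30 against day 7 has the largest difference, 3.34, and Rela is the gene with a filled point against the direction of the others in the last panel and at day 7 against day 3.

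Several of these values turned on the first day 0 library. Relative to the mean of the other 2 day 0 libraries it was 2.44 higher on the log2 scale for Tnfaip3, 1.96 for Nfkbiz, 1.498 for Nfkbia and 1.01 for Rel, and as high a difference was found in 0.116%, 0.248%, 0.505% and 1.39% of tested genes. The same measure was 0.07 for Nfkb2, 0.24 for Nfkbie and −0.31 for Rela. Genes of the early response, which are switched on within minutes of stimulation, had their highest sum in the first day 0 library. The summed signal of 19 of them was 10496, 3145 and 3501 at day 0, 3781, 5301 and 4728 at day 3, 2318, 1755 and 2691 at day 7, and 8018, 8062 and 7935 at day 30. The first day 0 library and the 3 day 30 libraries held the 4 highest sums, as they did the 4 highest values of Nfkbiz, Tnfaip3 and Nfkbia. The sum includes the heat shock genes Hspa1a and Hspa1b, at 1436 ± 1425 and 674 ± 663 at day 0. By gene, 6 of the 18 tested rose and 5 fell at day 3 against day 0 (median −0.05). Of all tested genes 22.1% rose and 22.1% fell there. Markers of several other cell types were lower in the first day 0 library than in the second and the last: the T and NK cell sum was 37.6 against 172 and 126, the endothelial sum 10.8 against 120.4 and 95.6, the erythroid sum 10.4 against 74.5 and 88.7, and the fibroblast sum 39.5 against 110.3 and 118, while the mast cell sum was 36.7 against 20.8 and 19.6. The part of these cells and of the early response in the changes of these genes was not tested. Without the first day 0 library 8 of the 10 members passed at day 3 against day 0, among them Nfkb1 (0.55, adjusted p = 0.0250) and Relb (0.62, 0.0481), where 3 passed with it; 42.6% of tested genes passed in that fit.

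**Figure D3:**
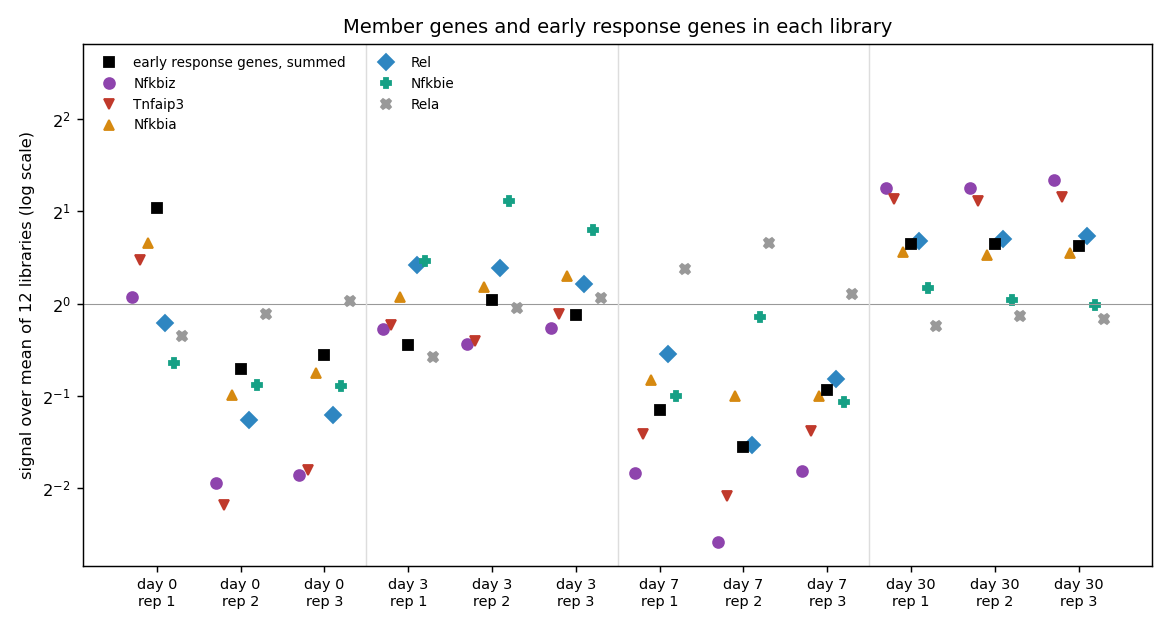
Signal of 6 members and the summed signal of 19 early response genes in each library, each divided by its own mean over the 12 libraries (vertical axis, log scale), with libraries in columns by day and replicate. The first day 0 library and the 3 day 30 libraries hold the highest early response sums, 10496 and 7935 to 8062, while the highest values of Rela are at day 7.

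The day 30 libraries also differed least for the members. The median coefficient of variation of the members was 29.6% at day 0, 10.7% at day 3, 26.2% at day 7 and 3.56% at day 30, and over all tested genes it was 17.7% at day 0, 17.8% at day 3, 28.1% at day 7 and 8.45% at day 30. With the 3 day 30 libraries averaged and counted as 1 sample, 0 members passed at day 30 against day 0 and against day 3, and 3 passed against day 7 (Rel, Nfkbiz and Tnfaip3). In that fit 0.109% of tested genes passed against day 0, 15.6% against day 3 and 6.33% against day 7, so few genes of any kind passed against day 0. The adjusted p against day 0 was then 0.205 for Rel, 0.148 for Nfkbiz, 0.371 for Tnfaip3 and 0.679 for Nfkbie, with the same fold changes as above. Against day 3 it was 0.0732 for Nfkbiz, 0.201 for Tnfaip3 and 0.202 for Nfkbie, and against day 7 0.0605 for Nfkbia, 0.180 for Nfkbie and 0.273 for Rela.

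Levels were set beside each other per length of merged exons in GENCODE M21, from 1610 bases for Nfkbia to 12061 for Nfkb1. Merged exons pool all annotated transcripts of a gene. Which transcripts were expressed was not tested, so the order of genes may depend on this choice of length. At day 30 the signal per kilobase was highest for Nfkbiz, 179 ± 6.42, followed by Nfkbia with 74.4 ± 0.87, Tnfaip3 with 65.8 ± 0.87 and Rel with 28.2 ± 0.54. Relb was lowest at each day, at 1.36 to 2.30 per kilobase. At day 7 Nfkbia led with 26.6 ± 1.87 per kilobase and Nfkbiz had 18.1 ± 4.94. Across the 12 libraries, which share days and depth differences, log2(signal + 1) of Nfkbiz and Tnfaip3 correlated at r = 0.985, that of Nfkbia and Tnfaip3 at 0.951, and that of Rel and Nfkbiz at 0.930. Nfkbib and Nfkbie correlated at 0.853 and Nfkb1 and Nfkbib at 0.842. Rela had a negative r with Rel (−0.61), Nfkbia (−0.64) and Nfkbiz (−0.64).

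Among 7044 genes whose signal averaged 10 or more, members left out, those most like each member over the 12 libraries were found by the same r. For Nfkbia they were Dusp1 (0.987), a phosphatase of MAP kinases, Cxcl2 (0.986), a neutrophil chemokine, and Phlda1 (0.974). Among genes outside the family Tnfaip3 was most like Fosb (0.985), a subunit of the AP-1 transcription factor, Cxcl1 (0.984) and Ccl3 (0.9748), both chemokines. Among the same genes Nfkbiz was most like Ccl3 (0.972), Egr2 (0.968) and Fosb (0.966). Rel was most like Skil (0.992), a co-repressor of SMAD proteins, and Nfkbie most like Trib1 (0.978), a pseudokinase. Nfkbib was most like Samd4b (0.960) and Bcl3 (0.957), itself a nuclear IkB protein. The highest r of Nfkb1 was 0.894, with the transcription factor Irf1, and that of Relb 0.879, with the stress cytokine Gdf15. Rela was most like Rasal3 (0.965) and Nfkb2 most like Phrf1 (0.957).

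Other genes of the pathway were followed in lists. The counts of every list below stand beside the shares of all tested genes that passed. These were 22.1% higher and 22.1% lower at day 3 against day 0, and 11.4% and 10.2% at day 7 against day 0. At day 30 against day 0 they were 3.45% and 2.73%. Relative to day 3 they were 23.3% and 23.5% at day 7, and 19.2% and 20.3% at day 30. Between day 30 and day 7 they were 19.7% and 19.9%. Of the 20 receptors 11 rose and 0 fell at day 3 against day 0, with a median of 0.56 beside −0.02 over all tested genes. Tlr9, a receptor for microbial DNA, averaged 329 ± 98.3 at day 3 and 75.6 ± 2.85 at day 0 (2.06 ± 0.23, adjusted p = 3.42e-06), and Nod1, a sensor of bacterial cell walls, 65.7 ± 12.9 at day 3 and 20.8 ± 2.40 at day 0 (1.60 ± 0.20, 1.09e-05). Tlr4, the receptor for endotoxin, passed in 0 of the 6 comparisons, with means of 104 to 135; it passed at day 3 against day 0 under quantile normalisation (−0.56, 0.0430) and at day 7 against day 0 without the last day 7 library (−0.60, 0.0310). Relative to day 3, 2 receptors rose and 11 fell at day 30 (median −0.70), and 0 and 4 with day 30 averaged. The count of receptors higher at day 3 than at day 0 was 11 also without the first day 0 library.

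Of the 25 adaptors and ubiquitin ligases 16 rose and 0 fell at day 3 against day 0 (median 0.69). Myd88, the adaptor shared by most Toll-like receptors and the interleukin-1 receptor, averaged 69.5 ± 14.1 at day 3 and 19.1 ± 1.90 at day 0 (1.79 ± 0.18, adjusted p = 1.01e-06). Malt1, a protease that also serves as a signalling scaffold, averaged 68.8 ± 4.95 at day 3 and 20.6 ± 1.98 at day 0 (1.69 ± 0.21, adjusted p = 9.36e-06). At day 7 against day 3, 0 rose and 13 fell (median −0.59), and at day 30 against day 3, 0 rose and 14 fell (median −0.53); with day 30 averaged as 1 sample 3 fell, and 8 or 9 without any 1 of the second and last day 3 libraries or the 3 day 30 libraries.

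Among the 12 activating kinases 4 rose and 1 fell at day 3 against day 0 (median 0.28). This count is near the 44.2% of all tested genes that passed there and is read no further. Both catalytic subunits of the IkB kinase rose there: Ikbkb averaged 157 ± 11.6 at day 3 and 81.8 ± 8.30 at day 0 (0.94 ± 0.14, adjusted p = 4.44e-05), and Chuk 59.1 ± 3.86 at day 3 and 26.8 ± 0.62 at day 0 (1.11 ± 0.19, 0.000271). The related kinase Ikbke rose by 2.81 ± 0.30 (2.24e-06). The regulatory subunit Ikbkg and the non-canonical kinase Map3k14 passed in 0 comparisons. Without the second day 7 library Ikbkg passed at day 7 (0.50, 0.0138) and at day 30 (0.37, 0.0323) against day 3, and Map3k14 at day 3 against day 0 (0.39, 0.0382). Of the 12 kinases 0 passed at day 30 against day 0, with Ikbkb at 0.22 ± 0.14 (0.361) and Chuk at 0.57 ± 0.19 (0.0979); Chuk passed without the second day 7 library (0.00392), where 2 kinases did, and by DESeq2 (0.58, 0.0418).

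The IkB proteins outside the family described here and the other nuclear regulators, 9 genes, had 3 higher and 2 lower at day 3 against day 0 (median 0.27). Bcl3 averaged 32.9 ± 9.93 at day 3 and 9.38 ± 3.27 at day 0 (1.71 ± 0.26, adjusted p = 6.43e-05). Nfkbid, a nuclear IkB protein akin to Nfkbiz, averaged 40.6 ± 3.25 at day 30 and 11.7 ± 10.6 at day 0 (2.02 ± 0.37, 0.00590), and 0.319 was its adjusted p with day 30 averaged. Of 17 other brakes of the pathway 10 rose and 1 fell at day 3 against day 0 (median 0.61), among them Trafd1 (2.33 ± 0.24, 1.24e-06) and Zfp36, which destabilises cytokine mRNAs (2.03 ± 0.43, 0.00126). Cyld, which removes ubiquitin chains, averaged 72.7 ± 2.79 at day 3 and 55.4 ± 10.002 at day 0 (0.40 ± 0.18, 0.0811), and passed without the first day 0 library (0.54, 0.0315) or the second day 7 library (0.0141). Tnip1, another partner of Tnfaip3, averaged 26.7 ± 3.96 at day 7 and 12.01 ± 1.004 at day 0 (1.09 ± 0.17, 0.000401). Of the 17 brakes 3 rose at day 30 against day 0 (median 0.29), and 0 with day 30 averaged; Tnip3, also a partner of Tnfaip3, rose by 1.88 ± 0.22 (0.000200), with an adjusted p of 0.0692 where day 30 was averaged.

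Of the 7 ligands tested 3 rose and 2 fell at day 3 against day 0 (median 0.80), and 2 rose and 0 fell at day 30 against day 0 (median 0.16); that 2 was 1 without the second or the last day 0 library, the last day 3 library or any 1 day 30 library. Il1b, the cytokine interleukin-1 beta, averaged 129 ± 80.0 at day 0, 636 ± 142 at day 3, 75.4 ± 18.5 at day 7 and 548 ± 16.8 at day 30. It rose by 2.44 ± 0.31 at day 3 (adjusted p = 1.23e-05) and by 2.25 ± 0.31 at day 30 (0.000738), both against day 0, and changed by −3.06 ± 0.31 at day 7 against day 3 (2.14e-06). Tnf averaged 46.9 ± 21.2 at day 0, 32.7 ± 4.203 at day 3, 26.7 ± 5.19 at day 7 and 84.6 ± 3.03 at day 30. It rose by 1.65 ± 0.25 at day 30 against day 7 (0.000212), and its difference at day 3 against day 0 was −0.42 ± 0.25 (0.176), and −0.72 (0.0232) without the second day 0 library. The rise of Il1b at day 30 against day 0 had an adjusted p of 0.104 with day 30 averaged, and of the ligands 0 then passed.

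Known target genes of NF-kappa B changed in both directions. Of 33 tested, 21 rose and 7 fell at day 3 against day 0 (median 1.14), 5 rose and 6 fell at day 7 against day 0 (median −0.14), and 14 rose and 1 fell at day 30 against day 0 (median 0.68). Cxcl10, a chemokine for T cells that interferons also induce, averaged 1067 ± 403 at day 3 and 27.0 ± 12.97 at day 0 (5.26 ± 0.30, adjusted p = 2.33e-09). Ptgs2, which encodes an enzyme of prostaglandin synthesis, averaged 107 ± 0.51 at day 30 and 18.7 ± 6.98 at day 0 (2.52 ± 0.24, 4e-05). Cd83, a surface protein of activated antigen-presenting cells, averaged 609 ± 11.97 at day 30 and 64.3 ± 6.51 at day 3 (3.23 ± 0.22, 3.42e-08). The count of 14 was 18 without the first day 0 library, 7 without the second or any 1 day 30 library, 8 without the last day 0 library, and 1 with day 30 averaged. Relative to day 7, 18 targets rose and 4 fell at day 30 (median 0.83), with 9 and 0 where day 30 was averaged; 17 of 18 early response genes rose in that comparison (median 1.95), 10 where day 30 was averaged, and their part in it was not tested.

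**Figure D4:**
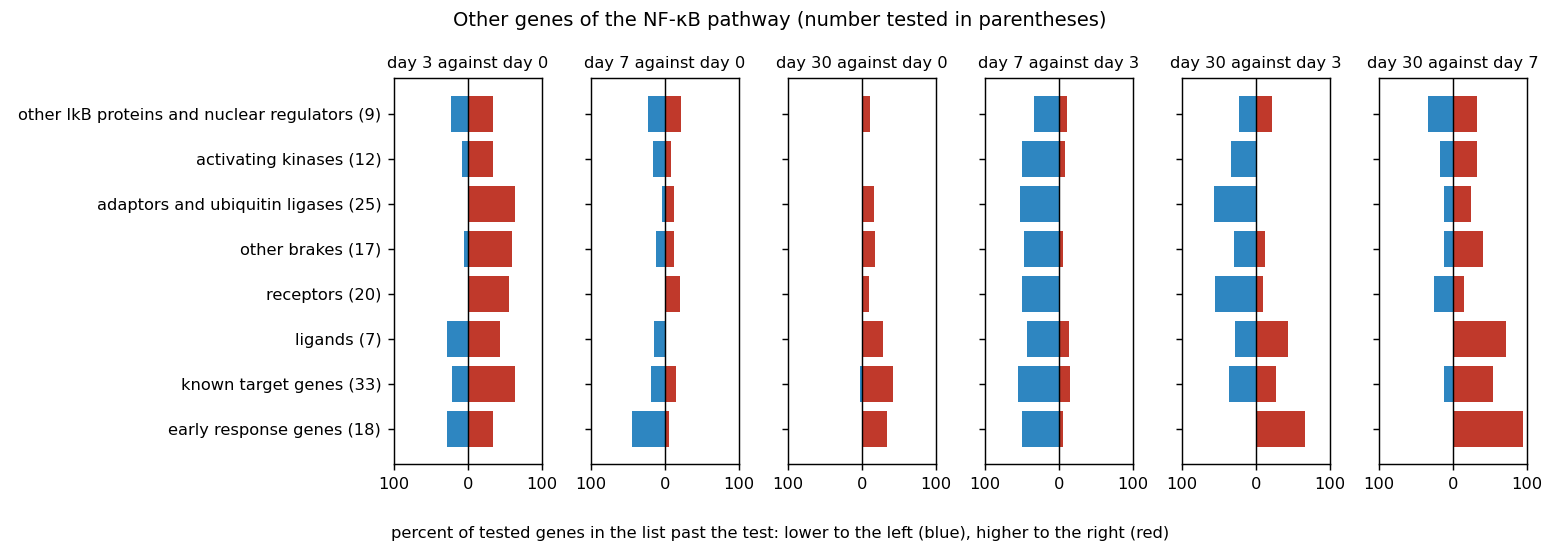
Percent of the tested genes of 8 lists (rows, number tested in parentheses) that passed the test in each of the 6 comparisons (panels), lower to the left in blue and higher to the right in red. Adaptors, receptors and other brakes are mostly higher at day 3 against day 0, with 16 of 25, 11 of 20 and 10 of 17 genes. At day 30 against day 7, 17 of 18 early response genes are higher. Of all tested genes 22.1% were higher in the first of these comparisons and 19.7% in the second.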

How the data were processed

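RNA was sequenced in 12 libraries of sorted mouse heart cells, 3 of each day. The deposited table of the authors gives for each gene a linear signal, a normalised read count, and its log2. Per the submitters' processing notes, cutadapt 1.3, RSEM 1.2.20, edgeR 3.14.0 and GRCm38 were used; adapter settings and strand are not given in the sources used here. The deposited log2 values equalled the log2 of the signal, with values below 1 set to 0, within 1e-09. Signal values were whole multiples of a step, and 100% gave whole reads within 0.02, with totals between 5828904 and 13199576. The limit that a count of 0 allows, 3 reads, is a signal of 0.190 to 0.543; such floors cover counting error only, and p-values measure the spread between these libraries.

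The 12879 genes whose signal averaged 1 or more were fitted as log2(signal + 1) with limma 3.58.1 in R 4.3.3 (variance trend, 4 group means, 8 residual degrees of freedom), two-sided, with Benjamini-Hochberg adjustment per comparison. The log2 scale with the added 1 understates changes of low genes. Replicate numbers did not pair libraries: deviations from group means correlated at a median of 0.00490 for the same number (−0.0831 to 0.210, 18 pairs) and −0.00690 for different numbers (36 pairs). The members and gene lists were chosen with earlier results of these data known. Besides the members, up to 3 genes of a list were eligible to be named per comparison, by size of change among those past the test whose signal averaged 10 or more, and Tnf, Il1b, Tlr4, Ikbkb, Chuk, Ikbkg, Map3k14, Bcl3, Nfkbid, Cyld and Tnip1 always; part of these is printed. Alternatives were other pseudocounts and filters, scalings, a replicate block, edgeR 4.0.16 (quasi-likelihood) and DESeq2 1.42.0 on the recovered reads, and leaving out libraries. With edgeR on those reads 5610, 2595 and 755 genes passed at days 3, 7 and 30 against day 0, 5965 at day 7 and 5066 at day 30 against day 3, and 5076 at day 30 against day 7. Coordinates and exons come from GENCODE M21 (GRCm38). The test was tried on simulated data first. Those data had the same dispersion for every gene and group, so they do not show how the test behaves where groups differ in spread.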

Additional observations from a re-analysis of the deposited data

How the results depend on the processing

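Of 60 differences of members 22 passed; over the 12 other settings these kept direction and call in 245 values and missed the threshold in 19, and with 1 library left out in 237 and 27. None of these changed direction. Members past the test ran over 3 to 8 at day 3 against day 0, 0 to 3 at day 7 against day 0, 2 to 5 at day 30 against day 0 and 1 to 4 at day 30 against day 3 with each library left out, where 36.1% to 52.4%, 14.5% to 25.9%, 1.82% to 15.5% and 30.1% to 47.7% of tested genes passed. Dropping both the first day 0 library and the second of day 7 gave 9, 3, 7 and 7 in these comparisons (53.5%, 17.9%, 19.5% and 51.0% of tested genes), and there Rel (0.54, adjusted p = 0.00716) and Tnfaip3 (0.58, 0.00890) reversed to higher at day 7 against day 0. With day 30 averaged as 1 sample the members past the test were 0 against day 0, 0 against day 3 and 3 against day 7; fewer samples entered that fit. Genes past the test were 2782 at day 7 against day 0, and 1740 with day 30 averaged. At day 30 against day 0 they were 796, and 1328 by DESeq2, 14 with day 30 averaged, 2513 without both libraries and 235 to 1990 with each library left out. With day 30 averaged they were 2013 against day 3 and 815 against day 7, where 5079 and 5103 passed. The replicate block, which pairs libraries by number although the numbers did not pair them, gave 5725, 2850, 835, 6040, 5110 and 5144 genes and 4, 0, 4, 6, 3 and 6 members in the 6 comparisons, and 8230 genes and 7 members in the F test; Nfkbiz then passed at day 3 against day 0 (0.91, 0.0350). The cause of these shifts was not tested.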
